A study of Mus musculus with 12 samples.

Results

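This account covers 36 genes of glucose handling in mouse liver, out of 56107 genes and assembled loci measured: the enzymes of glycolysis and gluconeogenesis, the glucose transporters Slc2a1 and Slc2a2, the glycogen genes, and the gatekeepers of pyruvate entry into mitochondria. They were taken from a list of gene symbols of these pathways, drawn up with earlier results of these data known, and each of the 36 reached the level needed for testing. Livers came from 12 mice that entered the study at 6 weeks of age and were then fed for 12 weeks. WT littermates on the low-fat diet (WT LFD, animals 4, 7 and 8) and on the high-fat diet (WT HFD, animals 1, 2 and 6) were set beside mice labelled as global Lix1l knockouts on the low-fat diet (KO LFD, animals 2, 4 and 5) and on the high-fat diet (KO HFD, animals 1, 5 and 6). The knockout is in every tissue by its label, and the labels used here give neither the deleted part of Lix1l nor the sex or strain of the mice. RNA was poly(A)-selected from frozen liver, and the values are TPM, a transcript abundance scaled to a fixed library total, which correct for transcript length and for the total of the library.

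Glycolysis splits glucose into pyruvate in the cytosol, and the liver runs most of the same reversible enzymes backwards to make glucose during fasting, with a few separate enzymes at the irreversible steps. Liver glycogen is built by a priming protein, a synthase and a branching enzyme, and is broken down by a phosphorylase. The pyruvate dehydrogenase kinases hold back the enzyme complex that commits pyruvate to oxidation or fat synthesis.

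Lix1l itself did not separate the genotype labels. It stood at 0.72, 0.58 and 1.08 TPM in WT LFD, at 1.18, 1.73 and 0.90 TPM in WT HFD, at 0.27, 0.21 and 0.78 TPM in KO LFD, and at 1.92, 0.15 and 1.38 TPM in KO HFD. The highest value of the 12 libraries was thus in a liver labelled knockout, so every genotype direction below rests on the labels. Transcript levels alone do not show whether a deletion that leaves part of the RNA is present.

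KO HFD was set off from the other 9 libraries. On the first principal component of the tested genes, which held 38.7% of the variance, they lay between 42.87 and 84.95 and the other libraries at 0.39 or below. The share of TPM from the mitochondrial genome was 22.13%, 12.38% and 10.71% in KO HFD animals 1, 5 and 6, and between 7.474% and 11.45% elsewhere. The summed level of the nuclear RNAs Malat1 and Neat1 was 99.5 to 322 TPM in KO HFD and 14.5 to 69.3 TPM elsewhere. Liver identity was clear in every library, with 8 of 8 hepatocyte markers above 0 and summing to between 38655 and 84773 TPM. That sum was 42561 to 47376 TPM in KO LFD, 38655 to 51513 TPM in KO HFD, 59944 to 84773 TPM in WT LFD and 66326 to 74268 TPM in WT HFD. The 10 endothelial markers, each detected, summed to 36.7 to 48.2 TPM in WT HFD and to 92.7 to 114 TPM in KO HFD, and 10 Kupffer cell and macrophage markers to 23.8 to 68.8 TPM and 63.7 to 395 TPM in the same groups. The macrophage sums overlapped, with KO HFD animal 1 at 63.7 TPM below WT HFD animal 1 at 68.8 TPM. In limma's test, 6 of 8 hepatocyte markers were lower in KO HFD than in WT HFD, and 9 of 10 endothelial and 6 of 10 macrophage markers were higher. The part of these differences in the results below was not tested, and in whole liver fewer cells of a type and less RNA per cell cannot be told apart.

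Per unit of length, the most abundant members were Gapdh, Pck1, Ldha and Fbp1, and Pck2 and Pfkfb3 were on average the least abundant, at 0.82 to 1.97 and 0.4 to 3.43 TPM over the 12 libraries. Together the 36 genes summed to 5898 to 6990 TPM in WT LFD, 5416 to 6211 TPM in WT HFD, 5451 to 6648 TPM in KO LFD and 3398 to 4673 TPM in KO HFD. The KO HFD livers were therefore the lowest, with no overlap with the other 9. Without Gapdh the sum was 1622, 2412 and 3077 TPM in KO HFD animals 1, 5 and 6, and 4003 to 5789 TPM elsewhere.

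**Figure D1:**
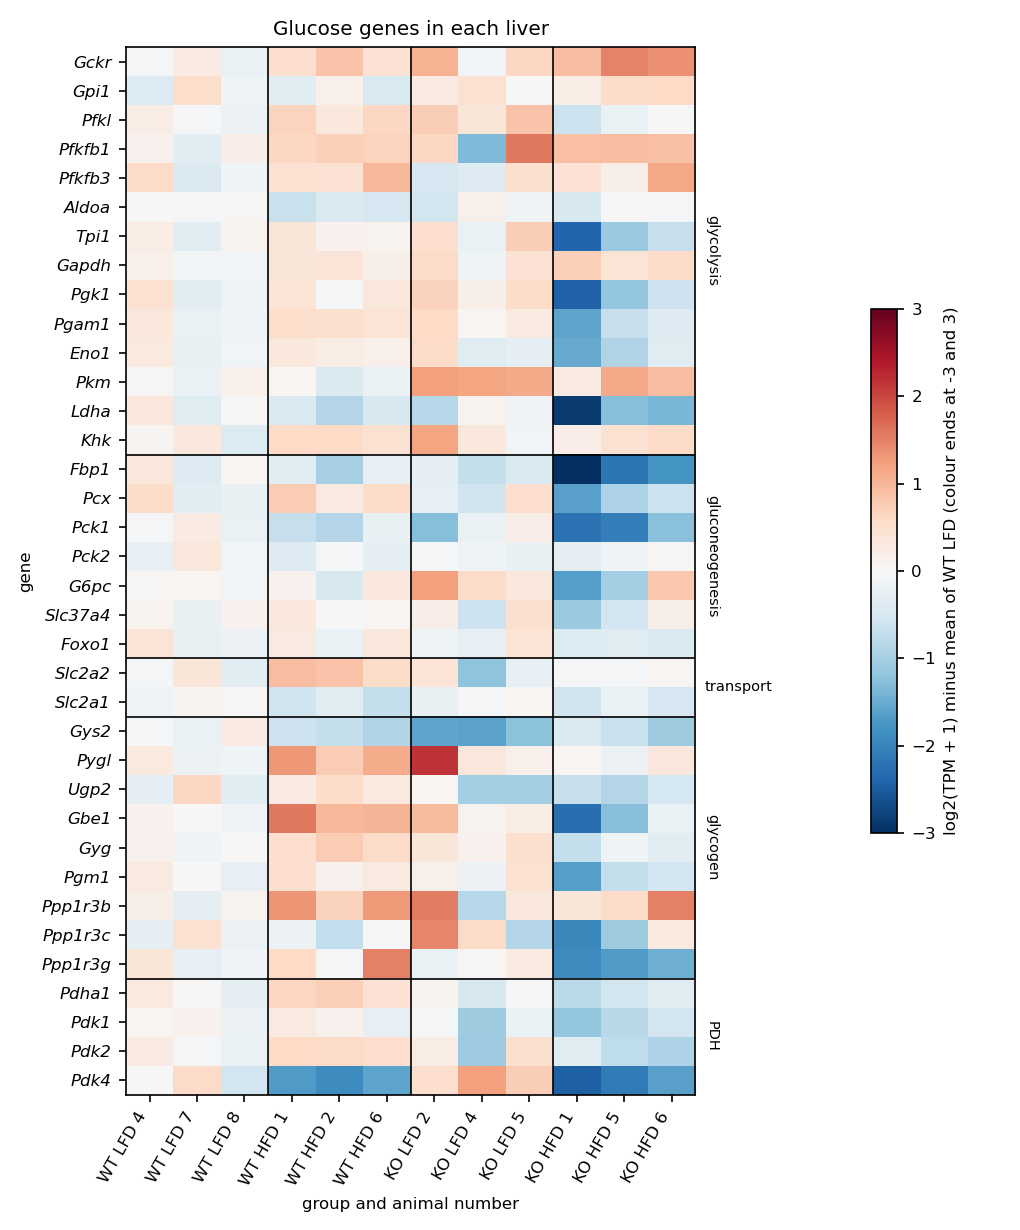
Level of each of the 36 genes (rows, by role) in each of the 12 libraries (columns, by group) as the difference in log2(TPM + 1) from the gene's mean in WT LFD, with the colour scale ending at 3 in either direction. Tpi1, Pgk1, Ldha, Fbp1, Pck1 and Ppp1r3g are low in the 3 KO HFD columns, most of all in animal 1, and Gapdh, Pkm, Gckr and Gpi1 are not.

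On the high-fat diet, livers labelled knockout had lower levels of 17 of the 36 genes and a higher level of 1, Pkm, than WT livers, in limma tests on log2(TPM + 1) adjusted over 11980 genes. That is 50% of the members called, 2.78% upward and 47.2% downward, where 37.0% of all tested genes were called in this comparison, 11.2% upward and 25.8% downward. The median log2 change was -0.80 over the members and -0.25 over all tested genes. Lower levels were found at several successive steps of the pathways, in 6 of 14 glycolysis and 3 of 7 gluconeogenesis genes. They were also found in 5 of 9 glycogen and 3 of 4 pyruvate dehydrogenase genes, but in neither of the 2 transporters. The median log2 change of the 14 glycolysis genes was -0.09, less negative than that of all tested genes. It was -0.62 for gluconeogenesis, -0.33 for transporter, -0.99 for glycogen and -1.03 for pyruvate dehydrogenase genes. When each library was instead scaled by the median ratio to the others, the median of all genes moved from -0.25 to 0.04, the share of lower genes among all calls from 69.6% to 43.9%, and the members called were 4 higher and 12 lower. A correction for GC content and length, added after the data were seen, gave 3 higher and 15 lower members. The median of all genes was then -0.04, with 52.6% of all calls lower. Of all tested genes, 38.7% were called under median-ratio scaling and 39.1% under the correction.

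The glycolysis enzymes that fell were enzymes of the reversible steps together with Pfkl and Ldha. Pgk1, phosphoglycerate kinase, makes the first ATP of the pathway, and its TPM was 180, 128 and 170 in WT HFD and 24.2, 59.1 and 86.8 in KO HFD. The groups did not overlap, and the log2 change was -1.64 ± 0.39 (SE, n = 3 per group, adjusted p = 0.00872). Tpi1, triose phosphate isomerase, stood at 306, 261 and 254 TPM in WT HFD and at 44.7, 110 and 147 TPM in KO HFD. Again every KO HFD liver was below every WT HFD liver, by -1.59 ± 0.38 on the log2 scale (adjusted p = 0.0093). Pgam1, the phosphoglycerate mutase of liver, was at 106, 103 and 97.4 TPM in WT HFD and at 24, 45.1 and 55.8 TPM in KO HFD. It had the most even WT HFD values of these enzymes and fell by 1.35 ± 0.28 on the log2 scale (adjusted p = 0.00499). Eno1, an enolase, went from 250, 235 and 222 TPM to 69.7, 106 and 157 TPM, a log2 change of -1.16 ± 0.31 (adjusted p = 0.0148). Pfkl, the liver isoform of phosphofructokinase that controls entry into glycolysis, was at 8.93, 6.84 and 8.58 TPM in WT HFD and 3.03, 4.5 and 5.21 TPM in KO HFD, and fell by 0.81 ± 0.21 (adjusted p = 0.0126). Ldha, which interconverts pyruvate and lactate, was at 722, 537 and 706 TPM in WT HFD and at 134, 403 and 379 TPM in KO HFD, with a log2 change of -1.24 ± 0.40 (adjusted p = 0.0308). In each of these 6 genes the lowest of the 12 livers was KO HFD animal 1.

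Gapdh, the enzyme between Tpi1 and Pgk1 in the pathway, did not share in this. It stood at 1377, 1413 and 1211 TPM in WT HFD and at 1776, 1439 and 1596 TPM in KO HFD, with a log2 change of 0.26 ± 0.21 (adjusted p = 0.341) that missed the threshold in all 20 alternative analyses and stayed positive in each. The 3 KO HFD values were nevertheless all above the WT HFD values. Aldoa, an aldolase, was at 55.2, 65.1 and 62.4 TPM in WT HFD and 63.2, 87.1 and 84.8 TPM in KO HFD (log2 change 0.35, adjusted p = 0.189), and passed upward under median-ratio scaling alone (adjusted p = 0.0141). Gckr, the inhibitory partner of glucokinase, and Gpi1, glucose phosphate isomerase, had log2 changes of 0.67 ± 0.27 and 0.68 ± 0.26 (adjusted p = 0.0718 and 0.056), with no overlap between the groups. Gckr passed upward in 6 and Gpi1 in 7 of the 20 alternatives, among them median-ratio scaling (adjusted p = 0.00732 and 0.013), the correction for GC content and length (0.00927 and 0.0213), TPM without mitochondrially encoded genes (0.0362 and 0.0311) and the fit of these 2 groups alone (0.0428 and 0.0427). The regulatory enzymes Pfkfb1 and Pfkfb3, and Khk, which feeds fructose into the pathway, changed by 0.23, -0.04 and -0.15 with adjusted p of 0.714 to 0.938.

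Pkm was the exception among the called members. It encodes the pyruvate kinase of non-hepatocyte and dividing cells, and was low throughout, at 2.69, 1.65 and 2.1 TPM in WT HFD and 3.27, 6.87 and 5.72 TPM in KO HFD. The log2 change was 0.97 ± 0.23 (adjusted p = 0.00846), and every KO HFD liver was above every WT HFD liver. On the low-fat diet it was at 2.67, 2.07 and 2.98 TPM in WT and at 7.4, 7.05 and 6.84 TPM in the livers labelled knockout, with a log2 change of 1.19 ± 0.23 that missed the threshold (adjusted p = 0.0927), although it passed under median-ratio scaling (adjusted p = 0.0256). The summed endothelial markers were at 95.7 to 109 TPM in KO LFD and 51.3 to 59.6 TPM in WT LFD, and apart on the high-fat diet too, while the macrophage sums overlapped on the high-fat diet. The sums of 10 stellate cell and fibroblast markers were also apart on both diets. They were at 77.6 to 132 TPM in KO LFD, 45.3 to 76.2 TPM in WT LFD, 49 to 93 TPM in KO HFD and 29.4 to 47.3 TPM in WT HFD. Their part in the Pkm levels was not tested.

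**Figure D2:**
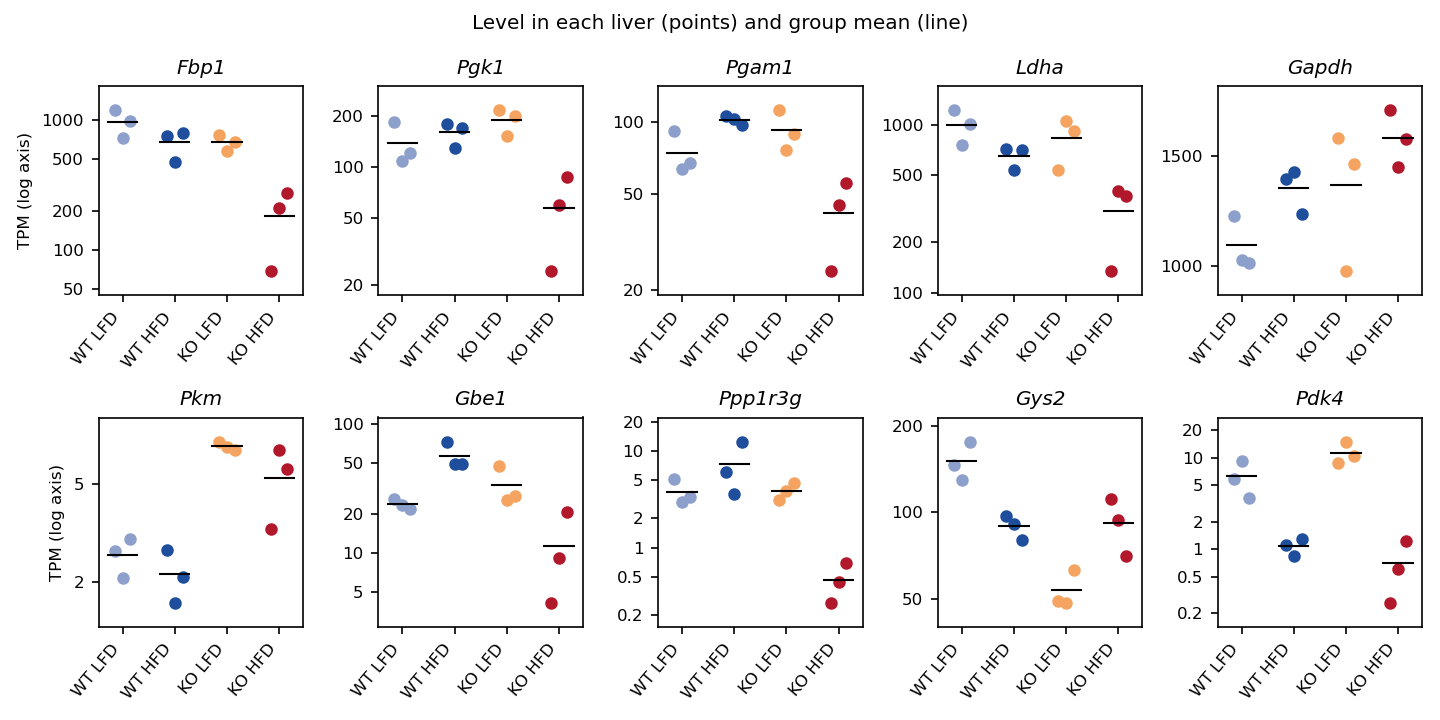
TPM of 10 of the genes on log axes, with a point for each liver and a line at the mean of each group of 3. Fbp1, Pgk1, Pgam1, Ldha, Gbe1 and Ppp1r3g are lowest in KO HFD, Gapdh is highest there on average, Gys2 is lowest in KO LFD, and Pdk4 is lower on HFD than on LFD in both genotypes.

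The promoters of Pgk1, Pgam1 and Ldha, which fell, of Gapdh, which did not, and of Fbp1, the largest fall in gluconeogenesis, are printed here to show what the start regions of neighbouring enzymes hold. Sequences are from RefSeq on GRCm38.p6, from 250 bases before to 50 bases after the annotated start, 5′ to 3′ on the strand of the gene. Capitals mark matches on either strand to any of 6 searched motifs, of which ACGTGC (the core of a hypoxia response element, GCACGT on the other strand), GGGCGG (a GC box, CCGCCC on the other strand), CACGTG (an E-box) and TGACGTCA (a cAMP response element) occur in these 5 windows. ACGTGC overlaps CACGTG where a C follows the E-box.
Pgk1 chrX:106186850-106187149 (plus strand): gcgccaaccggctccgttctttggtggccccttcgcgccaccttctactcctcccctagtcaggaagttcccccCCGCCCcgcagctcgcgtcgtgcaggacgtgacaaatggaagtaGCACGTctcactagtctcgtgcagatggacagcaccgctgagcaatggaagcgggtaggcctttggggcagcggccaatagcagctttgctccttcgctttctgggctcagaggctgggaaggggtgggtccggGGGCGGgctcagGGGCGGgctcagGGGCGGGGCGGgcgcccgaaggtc
Pgam1 chr19:41911621-41911920 (plus strand): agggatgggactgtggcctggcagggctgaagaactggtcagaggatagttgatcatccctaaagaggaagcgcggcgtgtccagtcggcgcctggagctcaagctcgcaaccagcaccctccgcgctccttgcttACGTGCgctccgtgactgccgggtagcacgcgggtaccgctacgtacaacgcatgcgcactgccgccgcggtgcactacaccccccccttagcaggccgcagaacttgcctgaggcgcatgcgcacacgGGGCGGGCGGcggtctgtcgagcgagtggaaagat
Ldha chr7:46845554-46845853 (plus strand): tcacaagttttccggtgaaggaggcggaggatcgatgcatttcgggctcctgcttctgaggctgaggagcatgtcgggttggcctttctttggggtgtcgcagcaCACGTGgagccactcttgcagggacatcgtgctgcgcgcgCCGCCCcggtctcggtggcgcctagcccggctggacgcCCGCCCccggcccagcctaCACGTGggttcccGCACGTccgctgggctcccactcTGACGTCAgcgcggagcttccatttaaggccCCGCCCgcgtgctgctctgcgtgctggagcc
Gapdh chr6:125165724-125166023 (minus strand): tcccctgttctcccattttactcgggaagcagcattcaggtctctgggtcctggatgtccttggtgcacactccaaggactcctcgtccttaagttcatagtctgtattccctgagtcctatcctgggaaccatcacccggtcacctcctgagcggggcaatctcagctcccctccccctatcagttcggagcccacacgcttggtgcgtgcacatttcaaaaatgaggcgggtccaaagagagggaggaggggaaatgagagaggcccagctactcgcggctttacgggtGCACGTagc
Fbp1 chr13:62888233-62888532 (minus strand): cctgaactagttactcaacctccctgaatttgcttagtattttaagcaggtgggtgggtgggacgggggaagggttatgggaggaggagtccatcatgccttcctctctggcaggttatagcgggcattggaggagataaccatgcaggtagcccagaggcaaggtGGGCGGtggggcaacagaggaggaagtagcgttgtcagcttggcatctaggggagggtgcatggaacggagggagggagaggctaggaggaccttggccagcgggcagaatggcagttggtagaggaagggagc

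A window was found for 34 of the 36 members. ACGTGC on either strand was in 9 of the 34, namely Pfkfb3, Gapdh, Pgk1, Pgam1, Ldha, Slc2a1, Ugp2, Pgm1 and Ppp1r3g, and in 8.28% of the 11033 windows of tested genes and 5.91% of all 32851 windows. Of these 9, 6 were among the 17 genes that fell on the high-fat diet, and Gapdh, Pfkfb3 and Slc2a1 were not. GGGCGG was in 24 of the 34 and in 60.4% of the windows of tested genes, and CACGTG in 6 of the 34 and in 10.2%. TGACGTCA was in 1 window, that of Ldha, against 2.93% of the windows of tested genes. The TATA box letters TATAAA were in 3 windows, of G6pc, Slc2a1 and Pgm1, against 7.99%, and the forkhead letters GTAAACA were in none of the 34, against 3.11%. These matches describe the letters of the windows only.

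In gluconeogenesis the largest fall was in Fbp1, fructose bisphosphatase, the enzyme that opposes phosphofructokinase. Its TPM was 764, 479 and 797 in WT HFD, 69, 210 and 275 in KO HFD, 1200, 728 and 984 in WT LFD and 774, 582 and 688 in KO LFD. Each KO HFD value lay below each of the other 9, and the log2 change from WT HFD was -2.06 ± 0.43 (adjusted p = 0.00518). Pcx, pyruvate carboxylase, which starts the pathway from pyruvate, was at 149, 106 and 128 TPM in WT HFD and at 27.4, 45.5 and 56 TPM in KO HFD, a log2 change of -1.60 ± 0.34 (adjusted p = 0.00582). Pck1, the cytosolic phosphoenolpyruvate carboxykinase, was at 735, 643 and 1016 TPM in WT HFD and at 257, 288 and 496 TPM in KO HFD, a log2 change of -1.23 ± 0.37 (adjusted p = 0.0226). The groups did not overlap in either gene. Pck2, the mitochondrial form, was near 1 TPM in each group (log2 change 0.11, adjusted p = 0.661).

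The last steps of glucose release gave no call. G6pc, the catalytic subunit of the phosphatase that frees glucose, was at 134, 87.9 and 152 TPM in WT HFD and at 38.5, 59.8 and 214 TPM in KO HFD. KO HFD animal 6 was thus the highest of the 6 livers and animals 1 and 5 the lowest (log2 change -0.61 ± 0.50, adjusted p = 0.352), and without animal 6 the fall passed the threshold (adjusted p = 0.0105). Slc37a4, the transporter that brings the phosphatase its substrate, had the same order within KO HFD, at 25.4, 37.5 and 63.4 TPM (log2 change -0.62, adjusted p = 0.162, and 0.0368 without animal 6). Foxo1, a transcription factor of fasting gene expression, was at 3.26, 2.06 and 3.51 TPM in WT HFD and 1.66, 1.75 and 1.61 TPM in KO HFD, without overlap, but missed the threshold (log2 change -0.54, adjusted p = 0.0887).

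Of the glucose transporters, Slc2a2, the main one of hepatocytes, was at 126, 121 and 97.3 TPM in WT HFD and at 64.3, 64.8 and 68.8 TPM in KO HFD. The groups were apart, and the log2 change of -0.78 ± 0.34 missed the threshold in this fit (adjusted p = 0.0853) and passed it when only these 2 groups were fitted (adjusted p = 0.0148). Slc2a1, the widely expressed transporter, was at 2.57, 3.24 and 2.27 TPM and at 2.55, 3.71 and 2.77 TPM in the same groups (log2 change 0.12, adjusted p = 0.615).

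Among the glycogen genes, Ppp1r3g and Gbe1 had the largest changes. Ppp1r3g, which brings protein phosphatase to glycogen, was at 6.1, 3.58 and 12.5 TPM in WT HFD and at 0.27, 0.44 and 0.69 TPM in KO HFD. No KO HFD liver reached 1 TPM, and the log2(TPM + 1) change of -2.38 ± 0.33 (adjusted p = 0.00109), the smallest adjusted p among the members in this comparison, understates a change at such low levels. Gbe1, the branching enzyme, was at 72.8, 48.8 and 48.9 TPM in WT HFD and at 4.14, 9.21 and 20.7 TPM in KO HFD, a log2 change of -2.44 ± 0.42 (adjusted p = 0.00244). Pgm1, which moves phosphate between positions of glucose, was at 142, 109 and 120 TPM and at 30.7, 59.6 and 66.3 TPM (log2 change -1.29 ± 0.29, adjusted p = 0.00653). Gyg, the primer of glycogen, was at 3.56, 4.43 and 3.76 TPM and at 0.95, 1.96 and 1.6 TPM (log2 change -0.99 ± 0.19, adjusted p = 0.00331). Ugp2, which makes the UDP-glucose used for glycogen, was at 152, 187 and 156 TPM and at 78.3, 69.2 and 88.7 TPM (log2 change -1.06 ± 0.32, adjusted p = 0.0242). In all 5 genes each KO HFD liver was below each WT HFD liver.

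The enzyme that adds glucose to the chain and the enzyme that removes it were not called on the high-fat diet. Gys2, the liver glycogen synthase, was at 96.9, 91 and 79.7 TPM in WT HFD and at 111, 94.1 and 70.4 TPM in KO HFD, overlapping groups with a log2 change of 0.02 ± 0.21 (adjusted p = 0.945). Pygl, the liver glycogen phosphorylase, was at 127, 87.8 and 112 TPM in WT HFD and at 53.2, 44.9 and 65 TPM in KO HFD. Those groups did not overlap, but the log2 change of -0.99 ± 0.43 missed the threshold (adjusted p = 0.0874), and it passed without KO LFD animal 2 (adjusted p = 0.00689), the liver with the highest Pygl level at 234 TPM. The targeting subunits Ppp1r3b and Ppp1r3c had log2 changes of -0.28 and -0.60 (adjusted p = 0.673 and 0.449).

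At the entry of pyruvate into mitochondria, Pdha1, the catalytic subunit of pyruvate dehydrogenase, was at 52.5, 55.2 and 45.2 TPM in WT HFD and at 18.7, 22.2 and 26 TPM in KO HFD (log2 change -1.16 ± 0.21, adjusted p = 0.00305). Its inhibitory kinases Pdk1 and Pdk2 fell as well. Pdk2, the most abundant of the 3 kinases on HFD, was at 52.7, 51.5 and 49.1 TPM and at 26.6, 20 and 17.7 TPM (log2 change -1.23 ± 0.34, adjusted p = 0.0164), and Pdk1 at 17.7, 15.8 and 12 TPM and at 5.86, 7.68 and 9.41 TPM (log2 change -0.91 ± 0.27, adjusted p = 0.0235). The enzyme subunit and these kinases that restrain it were thus lower in the same 3 livers. Pdk4, the kinase known for its rise in fasting, was near 1 TPM in both groups (log2 change -0.33, adjusted p = 0.418).

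Of the 18 calls, 10, those of Tpi1, Pgk1, Pgam1, Fbp1, Pcx, Gbe1, Gyg, Pgm1, Ppp1r3g and Pdha1, held in every alternative analysis that tested them, and all 18 kept their direction. Without KO HFD animal 1, the library with the highest mitochondrial share, 1 gene was higher and 13 were lower, with log2 changes of -1.13 for Pgk1, -1.46 for Fbp1, -1.93 for Gbe1 and -2.28 for Ppp1r3g, and with the calls of Ldha, Pck1, Ugp2 and Pdk1 lost (adjusted p = 0.0893, 0.0782, 0.0565 and 0.0793). Without WT HFD animal 1, 11 members were called, and Pfkl, Eno1 and Pdk2 were also lost (adjusted p = 0.0546, 0.0538 and 0.0541). Calls over all tested genes fell as well, from 37.0% to 27.7% without KO HFD animal 1 and to 19.6% without WT HFD animal 1. Groups did not overlap in 5 members that were higher in KO HFD and 20 that were lower, where 53.4% of all tested genes had no overlap, 16.1% higher and 37.3% lower. Reads of several members could also come from other genes that share their sequence. On either strand, 54.7% of the 31-base words in Pgk1 transcripts occur in other genes, so its level is uncertain. The share was 37.1% for Pgam1, 34.7% for Pkm, 28.5% for Eno1, 28.1% for Gapdh and 21.6% for Gpi1. It was 19.6% for Ldha, 17.0% for Aldoa, 15.8% for Pdha1, 15.1% for Pgm1, 10.5% for Tpi1, and 8.0% or less for the rest. For Pdha1 and Pgm1 the genes sharing the most words, Map3k15 and Itgb3bp, overlap them on the other strand. Exons of 11 members overlap a gene on the other strand (Gpi1, Pfkfb1, Aldoa, Tpi1, Gapdh, Pck2, Foxo1, Slc2a1, Ugp2, Pgm1 and Pdha1), those of Pkm overlap one on the same strand, and the sources used here do not say whether the libraries keep strand. Fbp1, Gbe1, Gyg, Gys2 and Ppp1r3g share no such words with other genes.

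**Figure D3:**
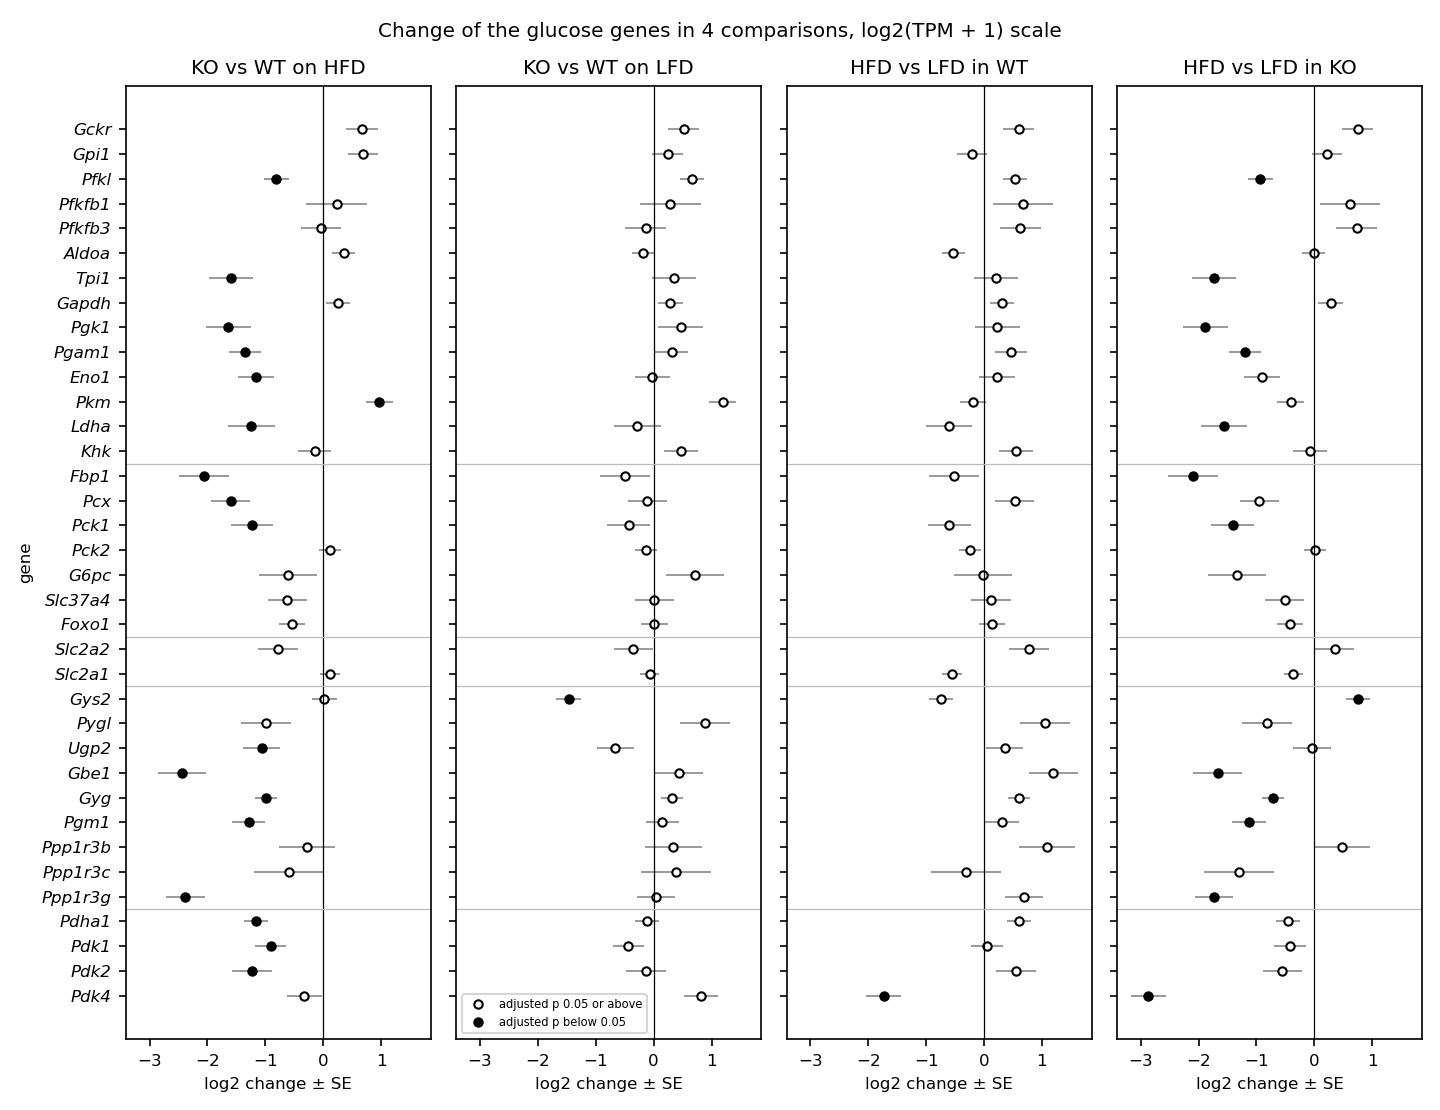
Log2 change ± SE on the log2(TPM + 1) scale for each of the 36 genes in 4 comparisons, with filled points for adjusted p below 0.05 and grey lines between the roles. In KO vs WT on HFD 18 points are filled, in KO vs WT on LFD 1 (Gys2), in HFD vs LFD in WT 1 (Pdk4) and in HFD vs LFD in KO 13.

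On the low-fat diet, 1 of the 36 genes differed between livers labelled knockout and WT, where 0.159% of all tested genes were called, 0.0918% upward and 0.0668% downward. Gys2, the liver glycogen synthase, was at 146, 129 and 176 TPM in WT LFD and at 49.2, 48.4 and 62.9 TPM in KO LFD. Every KO LFD liver was below every WT LFD liver, and the log2 change was -1.47 ± 0.21 (adjusted p = 0.0251). The call was lost without WT LFD animal 4 (adjusted p = 0.119), without WT LFD animal 8 (0.145), without WT HFD animal 1 (0.0503) and 2 (0.0531), and when only these 2 groups were fitted (0.121), with the direction kept in each. Groups did not overlap in 4 genes that were higher (Pfkl, Pkm, G6pc and Gyg) and in 1 that was lower, against 17.6% of all tested genes, 11.2% higher and 6.35% lower. The median log2 change was 0.09 over the members and 0.07 over all tested genes. The summed hepatocyte markers were at 59944 to 84773 TPM in WT LFD and 42561 to 47376 TPM in KO LFD, and the macrophage sum was at 55.4 to 105 TPM and 135 to 436 TPM. Of the single markers, 0 of 8 hepatocyte, 0 of 10 endothelial and 0 of 10 macrophage markers passed limma's adjusted test on this diet. At an unadjusted p under 0.05 in that test, 3 hepatocyte markers were lower and 9 endothelial and 9 macrophage markers higher. Of all 11980 tested genes, 1524 had such a p in either direction. Their part in the Gys2 difference was not tested.

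In WT livers, the high-fat diet changed 1 of the 36 genes, with 0.309% of all tested genes called, 0.250% upward and 0.0584% downward. Pdk4 fell from 5.84, 9.3 and 3.61 TPM on LFD to 1.11, 0.85 and 1.29 TPM on HFD. The groups did not overlap, and the log2 change was -1.73 ± 0.30 (adjusted p = 0.044), but the call was lost in 10 of the 20 alternatives, among them a pseudocount of 0.1 (adjusted p = 0.0709), no filter (0.134) and the fits without WT LFD animal 4 (0.0994) or 7 (0.11), WT HFD animal 1 (0.174), 2 (0.182) or 6 (0.135) or KO HFD animal 5 (0.0601). When only the 2 WT groups were fitted, 4 members were called, where 2.78% of all genes tested in that fit were. They were Pdk4, lower, and Gbe1 (adjusted p = 0.0242), Pygl (0.0366) and Ppp1r3b (0.0449), higher. Non-overlapping groups were found for 13 genes that were higher on HFD and 6 that were lower, against 24.0% of all tested genes, 15.2% higher and 8.81% lower. The largest of these that missed the threshold in the fit of all 12 libraries were Gbe1, Ppp1r3b and Pygl. Gbe1 went from 26.1, 23.5 and 21.9 TPM to 72.8, 48.8 and 48.9 TPM (log2 change 1.20 ± 0.42, adjusted p = 0.276). Ppp1r3b went from 19.9, 14.3 and 19 TPM to 45.6, 29 and 43.7 TPM (1.09 ± 0.49, adjusted p = 0.411). Pygl went from 62.9, 45.4 and 46.7 TPM to 127, 87.8 and 112 TPM (1.06 ± 0.43, adjusted p = 0.34).

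In livers labelled knockout, the high-fat diet gave lower levels of 12 of the 36 genes and a higher level of 1, or 36.1% of them, where 23.8% of all tested genes were called, 6.73% upward and 17.0% downward. The genes that fell were the glycolysis genes Pfkl, Tpi1, Pgk1, Pgam1 and Ldha, the gluconeogenesis genes Fbp1 and Pck1, the glycogen genes Gbe1, Gyg, Pgm1 and Ppp1r3g, and Pdk4. This comparison shares its KO HFD libraries with the one between genotypes on the high-fat diet, so calls that recur are no separate evidence. Pdk4 had the smallest adjusted p, falling from 8.81, 15 and 10.4 TPM on LFD to 0.26, 0.61 and 1.24 TPM on HFD (log2 change -2.87 ± 0.30, adjusted p = 0.000507). Fbp1 changed by -2.09 ± 0.43 and Pgk1 by -1.88 ± 0.39 (adjusted p = 0.00839 for both), Gbe1 by -1.67 ± 0.42 (adjusted p = 0.018) and Ppp1r3g by -1.73 ± 0.33 (adjusted p = 0.00659). Gys2 moved the other way, from 49.2, 48.4 and 62.9 TPM to 111, 94.1 and 70.4 TPM, with no overlap (log2 change 0.75 ± 0.21, adjusted p = 0.0245). Groups did not overlap in 1 member that was higher, Gys2, and in 13 that were lower, where 38.6% of all tested genes had no overlap, 10.9% higher and 27.7% lower. Pdk4 and Ppp1r3g held in all 20 alternatives. Gys2 was lost in 6, among them the fits without KO LFD animal 2 (adjusted p = 0.07) or 4 (0.0547) and KO HFD animal 1 (0.0674) or 5 (0.0645). Without KO HFD animal 1, 9 members were called, each of them lower, and the share of all tested genes called fell from 23.8% to 13.8%. Under median-ratio scaling 2 members were higher and 12 lower, where 27.7% of all tested genes were called. The share of lower genes among all calls moved from 71.7% to 47.3%.

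The interaction of genotype and diet asks whether the difference between genotypes changed with diet, and 9 of the 36 genes passed, 1 with a positive and 8 with a negative value, where 9.66% of all tested genes passed, 2.54% positive and 7.12% negative. For 8 of them (Pfkl, Tpi1, Pgk1, Pgam1, Gbe1, Gyg, Pgm1 and Ppp1r3g) the knockout-labelled livers were lower relative to WT on the high-fat diet than on the low-fat diet, and for Gys2 they were higher. The median interaction was -0.88 over the members and -0.31 over all tested genes. For Fbp1, Pcx and Pdha1 it missed the threshold (adjusted p = 0.104, 0.0666 and 0.0506). A change of their genotype difference with diet was thus not shown, although they were lower in KO HFD than in WT HFD. None of the 9 held in all 19 alternatives. The number called was 0 without WT LFD animal 8 or WT HFD animal 1, where 0.386% and 0.202% of all tested genes passed. It was 1 without WT HFD animal 6 (0.504% of all tested genes) and 2 without WT LFD animal 7 (1.86%). It was 5 without KO LFD animal 2 or 5 (2.95% and 2.79%), and 14 without KO HFD animal 6 (14%).

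Ratios of paired members within each liver are given as a description, with no test. The log2 ratio of Pfkl to Fbp1, the forward and reverse enzymes of one step, was -7.58, -7.16 and -7.76 in WT LFD, -6.42, -6.13 and -6.54 in WT HFD, -6.35, -6.36 and -6.06 in KO LFD, and -4.51, -5.54 and -5.72 in KO HFD. Fbp1 exceeded Pfkl in every liver, by the least in KO HFD. The log2 ratio of Gys2 to Pygl was 1.22, 1.51 and 1.91 in WT LFD and -0.39, 0.05 and -0.49 in WT HFD, and it was -2.25, -0.43 and 0.14 in KO LFD and 1.06, 1.07 and 0.11 in KO HFD. The synthase was thus above the phosphorylase in each WT LFD and KO HFD liver, and WT fell from LFD to HFD without overlap, while the KO LFD and KO HFD values met at 0.14 and 0.11. The log2 ratio of Pdk4 to Pdk2 was -3.06 to -1.82 in WT LFD, -5.92 to -5.25 in WT HFD, -2.22 to -0.06 in KO LFD and -6.68 to -3.84 in KO HFD, lower on the high-fat diet in both genotypes without overlap. On that diet it rests on low Pdk4 levels, 0.85 to 1.29 TPM in WT HFD and 0.26 to 1.24 TPM in KO HFD.

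**Figure D4:**
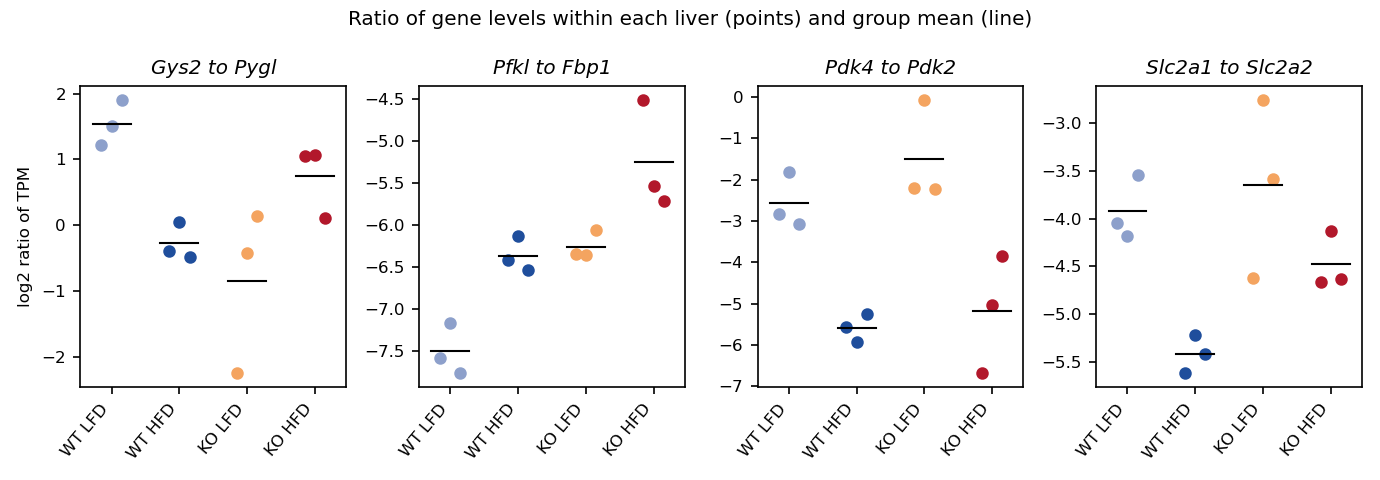
Log2 ratio of TPM between pairs of glucose genes in each liver (points), by group, with a line at each group's mean. Pfkl to Fbp1 is highest in KO HFD, Gys2 to Pygl is positive in each WT LFD and KO HFD liver, and Pdk4 to Pdk2 is lower on HFD than on LFD in both genotypes.

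Genes of the same pathways outside the 36 were counted from lists. On the high-fat diet, 11.2% of all tested genes were higher and 25.8% lower in livers labelled knockout. Of 17 tested other glycolysis and gluconeogenesis genes 4 were higher (23.5%) and 4 lower (23.5%), and of 16 other glycogen genes 2 were higher (12.5%) and 6 lower (37.5%). Of 8 other genes of pyruvate dehydrogenase and pyruvate carriage none was higher and 6 were lower (75%). Of 9 fructose and galactose genes 1 was higher and 3 lower (33.3%), and of 8 pentose phosphate genes none was higher and 2 were lower (25%). The lower shares of glycolysis, fructose and galactose, and pentose phosphate genes were thus near that of all genes. The higher share of the other glycolysis and gluconeogenesis genes, 23.5%, was above the 11.2% of all genes. The genes named next are the 2 of lowest p in each list, and all of them fell. Mdh1, the cytosolic malate dehydrogenase, which interconverts malate and oxaloacetate, went from 380 ± 31.7 TPM in WT HFD to 97.6 ± 52.1 TPM in KO HFD (SD, n = 3; log2 change -2.11 ± 0.37, adjusted p = 0.00263), and Pfkm, the muscle isoform of phosphofructokinase, from 5.42 ± 0.567 to 1.97 ± 0.761 TPM (-1.14 ± 0.20, adjusted p = 0.00241). Ppp1ca, a catalytic subunit of protein phosphatase, fell by 1.47 ± 0.32 (adjusted p = 0.00624), and Epm2a, laforin, the phosphatase that removes phosphate from glycogen, fell by 1.33 ± 0.22 (adjusted p = 0.00212). Dld, a shared subunit of mitochondrial dehydrogenases, changed by -1.26 ± 0.24 (adjusted p = 0.00324), and Pdp2, which reactivates pyruvate dehydrogenase, by -0.97 ± 0.19 (adjusted p = 0.00355). For sugars other than glucose, Galm, which flips the ring form of galactose, changed by -1.33 ± 0.22 (adjusted p = 0.002) and Slc2a5, a fructose transporter, by -2.13 ± 0.46 (adjusted p = 0.00585). The pentose phosphate genes H6pd and Rpe had log2 changes of -1.16 ± 0.24 and -0.79 ± 0.17 (adjusted p = 0.00527 and 0.00554).

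Of 16 hormone and transcription regulators of glucose genes, 1 was higher (6.25%) and 8 were lower (50%) on the high-fat diet, where 11.2% and 25.8% of all tested genes were. The gene that rose was Mlxipl, which encodes ChREBP, the transcription factor that answers to glucose, at 14 to 22.1 TPM in WT HFD and 36.3 to 76.4 TPM in KO HFD (log2 change 1.57 ± 0.32, adjusted p = 0.00429). On the low-fat diet Mlxipl was at 15.4 to 18 TPM in WT and 20.9 to 47.4 TPM in livers labelled knockout (0.93 ± 0.32, adjusted p = 0.244). Its interaction of genotype and diet was not called (0.64 ± 0.45, adjusted p = 0.335). Akt1, a kinase of insulin signalling, went from 14.5 to 18.3 TPM to 7.12 to 9.97 TPM (-0.88 ± 0.19, adjusted p = 0.0055).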

How the data were processed

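Liver RNA of 12 mice in 4 groups of 3 was measured by RNA-seq. TruSeq libraries were made from poly(A) RNA, per the labels' protocols. The authors used HISAT2, StringTie and build mm10, per the submitters' processing notes, which name no versions. Their deposited table gives TPM for 56107 genes. It holds no counts, so depth is unknown and no counting interval was computed. Columns named HO were taken as the livers labelled knockout, by diet and animal number. The authors' group means differed from recomputed means by at most 3.33e-05 TPM. Symbols were matched for 55141 of 55487 Ensembl identifiers, and positions are from GENCODE M21 on GRCm38.

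The 11980 genes that reached 1 TPM in 3 or more libraries were tested on log2(TPM + 1). The fit used limma 3.58.1 (R 4.3.3), a mean for each group (8 residual degrees of freedom), a trended empirical Bayes prior, 2-sided tests, Benjamini-Hochberg adjustment over all tested genes and a threshold of 0.05, below which a gene is called. A change on this scale understates that of low genes. Each library is 1 animal by its label. The script was tested on simulated data in which few genes changed, so that test does not bear on scaling between libraries. All 36 genes are named whatever their result, and of each other list the 2 tested genes with the lowest p in KO vs WT on HFD. Members and lists were chosen with earlier results of these data known. Alternatives were a pseudocount of 0.1, no filter, a filter of 5 TPM, median-ratio scaling, TPM without mitochondrially encoded genes, a fit of the groups compared, the animal number as a block, leaving out each library in turn, and a correction for GC content and length added after the data were seen. Animal numbers did not pair the samples.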

Additional observations from a re-analysis of the deposited data

Results flagged for a closer look

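The genotype difference of 9 of the 36 genes changed between the diets, by limma's interaction test adjusted over all 11980 tested genes. Of all tested genes 9.66% passed, 2.54% with a positive and 7.12% with a negative value. The interaction is the log2 difference between livers labelled knockout and WT on the high-fat diet minus that on the low-fat diet. In the glycogen genes it was -2.87 ± 0.60 (SE) for Gbe1 (adjusted p = 0.0233), -2.42 ± 0.47 for Ppp1r3g (adjusted p = 0.0208), -1.44 ± 0.40 for Pgm1 (adjusted p = 0.0467) and -1.32 ± 0.26 for Gyg (adjusted p = 0.0222). In glycolysis it was -2.11 ± 0.55 for Pgk1 (adjusted p = 0.039), -1.94 ± 0.54 for Tpi1 (adjusted p = 0.0461), -1.67 ± 0.40 for Pgam1 (adjusted p = 0.0316) and -1.47 ± 0.30 for Pfkl (adjusted p = 0.0226). Gys2 was the member with a positive value, 1.49 ± 0.29 (adjusted p = 0.021), with levels that were lower in livers labelled knockout on the low-fat diet and overlapping on the high-fat diet. Each of the 9 was lost in at least 4 of its alternatives, as when WT LFD animal 8 or WT HFD animal 1 was left out. Without these animals 0.386% and 0.202% of all tested genes passed.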

How the results depend on the processing

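TPM gives no depth, groups of 3 limit precision, and the KO HFD libraries carry most calls. The members called numbered 18 on the high-fat diet between genotypes, and 11 to 21 when 1 library was left out in turn, with 2327 to 4652 of all genes. The same ranges were 0 to 2 members and 4 to 64 genes between genotypes on the low-fat diet, 0 to 1 and 1 to 97 for diet in WT, 9 to 17 and 1607 to 2947 for diet in livers labelled knockout, and 0 to 14 and 24 to 2047 for the interaction.

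Animal numbers are shared by few groups, and same-numbered animals deviated together with correlations of -0.26 to 0.10, so the replicate block serves as a check only. With the block, the counts of members and of all genes called were 13 and 2693, 0 and 16, 0 and 10, 2 and 553, and 0 and 18 in that order of comparisons. The block also turned the diet change in WT to -0.13 for Pfkl, 0.13 for Aldoa, -0.53 for Slc2a2, -0.52 for Pygl, -1.30 for Ppp1r3b and -0.18 for Pdha1, none of them called, and the interaction of Pdk2 to 0.09. Fitting only the groups compared gave 0 members and 1 gene on the low-fat diet, 4 and 301 for diet in WT, and 4 and 992 for diet in livers labelled knockout. With no filter there were 1 member and 12 genes on the low-fat diet, 0 and 8 for diet in WT, and 1 and 182 for the interaction. A pseudocount of 0.1 gave 1 member and 8 genes on the low-fat diet, and 0 members and 31 genes for diet in WT. The stricter filter gave 0 members and 19 genes for the latter. Median-ratio scaling gave 2 members and 53 genes on the low-fat diet. The correction for GC content and length gave 2 and 42 there, and 1 member and 63 genes for diet in WT. The cause of these shifts was not tested. Over single genes and alternatives, 3172 of 3538 values kept direction and side of the threshold, 152 lost a call, 56 gained one, 7 turned as named, and 151 changed sign without a call.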

Other observations

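The step between Gapdh and Pgk1 was chosen for a closer look after its values were seen. The log2 ratio of Gapdh to Pgk1, which act one after the other in glycolysis, was 6.20, 4.61 and 4.20 in KO HFD animals 1, 5 and 6 and 2.69 to 3.46 in the other 9 livers. Both genes share a good part of their sequence with copies elsewhere, 28.1% and 54.7% of their 31-base words, and the part of this in the ratio was not tested.

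The ratio of the cytosolic to the mitochondrial carboxykinase, Pck1 to Pck2, was 8.09, 7.96 and 8.45 on the log2 scale in KO HFD and 8.57 to 10.40 in the other 9 livers. That ratio rests on low Pck2 levels, 0.82 to 1.97 TPM. The closest values were 8.45 in KO HFD animal 6 and 8.57 in KO LFD animal 2. The ratio of the transporters Slc2a1 and Slc2a2 was -5.62 to -5.22 in WT HFD and -4.66 to -2.75 in the other 9 livers.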
